A study of Mus musculus with 6 samples.

Results

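The glycosyltransferases described here build and cap the sugar chains of mucins, other glycoproteins and glycolipids. They were taken as every gene whose symbol begins with St3gal, St6gal, St6galnac, St8sia, Fut, Galnt, B3gnt, B3galt, B4galt or Gcnt followed by a number. These were 69 of the 18238 genes measured, in 10 families. The rule reads symbols and no measured value, although the families were picked with earlier results of these data known. RNA was sequenced from 6 mice with lung cancer. One group was 3 artemisinin-treated mice (artemisinin replicates 1 to 3). The other was 3 mice with lung cancer and no treatment named in the labels (model replicates 1 to 3). The drug artemisinin, a sesquiterpene lactone from Artemisia annua, is used as an antimalarial. The sources used here do not give the tissue, the strain, the age, the dose, the duration of treatment or how the tumours arose. The comparison asked how artemisinin changes gene expression in mice with lung cancer.

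Mucin-type sugar chains begin when a Galnt enzyme attaches N-acetylgalactosamine (GalNAc) to a serine or threonine. B3gnt, B3galt, B4galt and Gcnt enzymes extend and branch such chains with galactose and N-acetylglucosamine, and some of them also build glycolipids or the linker of proteoglycans. Sialyltransferases (St3gal, St6gal, St6galnac, St8sia) and fucosyltransferases (Fut) mainly add terminal sugars, while Fut8 adds fucose to the core of N-linked chains. Sialic acid and fucose at chain ends form the ligands of selectins, which slow leukocytes on vessel walls, and sialic acid is read by siglecs, receptors mainly of immune cells. Altered sialylation and fucosylation of mucins is a known feature of carcinomas of the lung and of other glands.

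The libraries held 25566173 to 34745497 counts. The artemisinin libraries differed more among themselves than the model libraries, with a biological coefficient of variation of 0.390 in the artemisinin group and 0.211 in the model group. Markers of lung epithelium were present in all 6 libraries. The summed level of 12 alveolar type 2 markers was 12823 to 28988 normalised CPM (counts scaled to the size of the library) in artemisinin mice and 63620 to 91001 in model mice. All 12 had a fold change below 1, and 6 were called lower. Summed neutrophil markers were 921.7 to 5060 CPM in artemisinin mice and 186.6 to 255.0 CPM in model mice, with 6 of 11 called higher. All 6 smooth muscle markers were called higher, at 1021 to 1831 CPM against 258.0 to 398.9 CPM in model mice. Summed club and secretory cell markers were 20546 to 72712 CPM in artemisinin mice and 7989 to 20260 CPM in model mice, with 0 of 12 called in edgeR. Most of this sum was Scgb1a1, at 18383 to 66749 CPM in artemisinin mice and 7164 to 17639 CPM in model mice. Of the 12 markers, 8 had a fold change above 1 and 4 (Muc5ac, Muc5b, Foxa3 and Spdef) below 1. Muc5ac was at most 0.458 CPM in artemisinin mice and at least 1.55 CPM in model mice. Ciliated cell markers summed to 638.2 to 1035 CPM in artemisinin mice and 312.3 to 568.5 CPM in model mice. Artemisinin replicate 2 stood apart for skeletal muscle markers, at 5812 CPM against 10.95 and 55.9 CPM in the other artemisinin mice and at most 4.66 CPM in model mice. Its keratinocyte markers were at 235.5 CPM, against at most 8.70 CPM in every other mouse. Fibroblast markers summed to 823.9 to 1370 CPM in artemisinin mice and 611.6 to 770.3 CPM in model mice, with 0 of 5 called in edgeR. Alveolar type 1 markers overlapped between the groups, at 2282 to 4401 CPM in artemisinin mice and 2707 to 3647 CPM in model mice. The summed markers of macrophages, T cells, B cells, platelets, endothelium and proliferation overlapped as well. In these overlapping sets the only calls were in macrophages, 1 of 8 higher and 1 lower. None of the markers was at 0 in all libraries. The part of these cell types in the results below was not tested. In bulk RNA, fewer cells of a type and less RNA per cell cannot be told apart.

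The clearest differences lay among the enzymes that add terminal sugars. At an adjusted p under 0.05 (edgeR quasi-likelihood fit, p-values adjusted by Benjamini-Hochberg over all 15242 genes tested), 7 glycosyltransferase genes were lower with artemisinin and 1 was higher. Of the 7, 4 were sialyltransferases (St8sia6, St6galnac3, St6galnac4 and St3gal6), 2 were fucosyltransferases (Fut2 and Fut4) and 1 was the chain-initiating enzyme Galnt3. The gene called higher was Galnt9, a second initiating enzyme. Enough counts for a test were found for 64 of the 69 genes. The 7 lower genes were 10.9% of the 64, where 2.3% of all genes tested were called lower. The single higher gene was 1.56% of the 64, where 2.17% of all genes were called higher. In either direction 12.5% were called, against 4.47% of all genes. Without adjustment 22 of the 64 (34.4%) had a p under 0.05, 8 higher and 14 lower, against 24.7% of all genes. The artemisinin and model values did not overlap for 25 of the 64 (39.1%), where this held for 33.6% of all genes. By direction, 18 (28.1%) were lower without overlap, against 17.3% of all genes, and 7 (10.9%) were higher without overlap, against 16.3%. The median log2 fold change was -0.08 over the 64 genes and 0.04 over all genes. With scaling by library totals in place of TMM factors the median over all genes was 0.15, and the split of all calls was 464 higher against 319 lower in place of 331 against 351.

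The calls changed more than the fold changes when 1 mouse was left out, a fit that also has fewer mice. Without artemisinin replicate 1 only St3gal6 and St6galnac4 were called, where 169 of all genes were called higher and 140 lower. Without model replicate 1, 2 or 3 no glycosyltransferase gene was called by edgeR. Of all genes, these fits called 6, 39 and 8 higher and 11, 79 and 15 lower. An unadjusted edgeR p under 0.05 was found for 15, 19 and 16 glycosyltransferase genes. The share of all genes under that p in these fits is not given here. Without artemisinin replicate 2 there were 11 calls, where 670 of all genes were called higher and 713 lower. Across these 6 fits the log2 fold changes of the 8 called genes kept their sign, for example from -1.23 to -1.005 for St6galnac4, from -0.75 to -0.65 for Galnt3 and from 2.29 to 2.68 for Galnt9. Artemisinin replicate 1 had the lowest value of the 6 libraries for 30 of the 64 genes (46.9%), against 29.9% of all genes, and model replicate 1 had the highest for 19 (29.7%), against 20.3% of all genes.

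**Figure D1:**
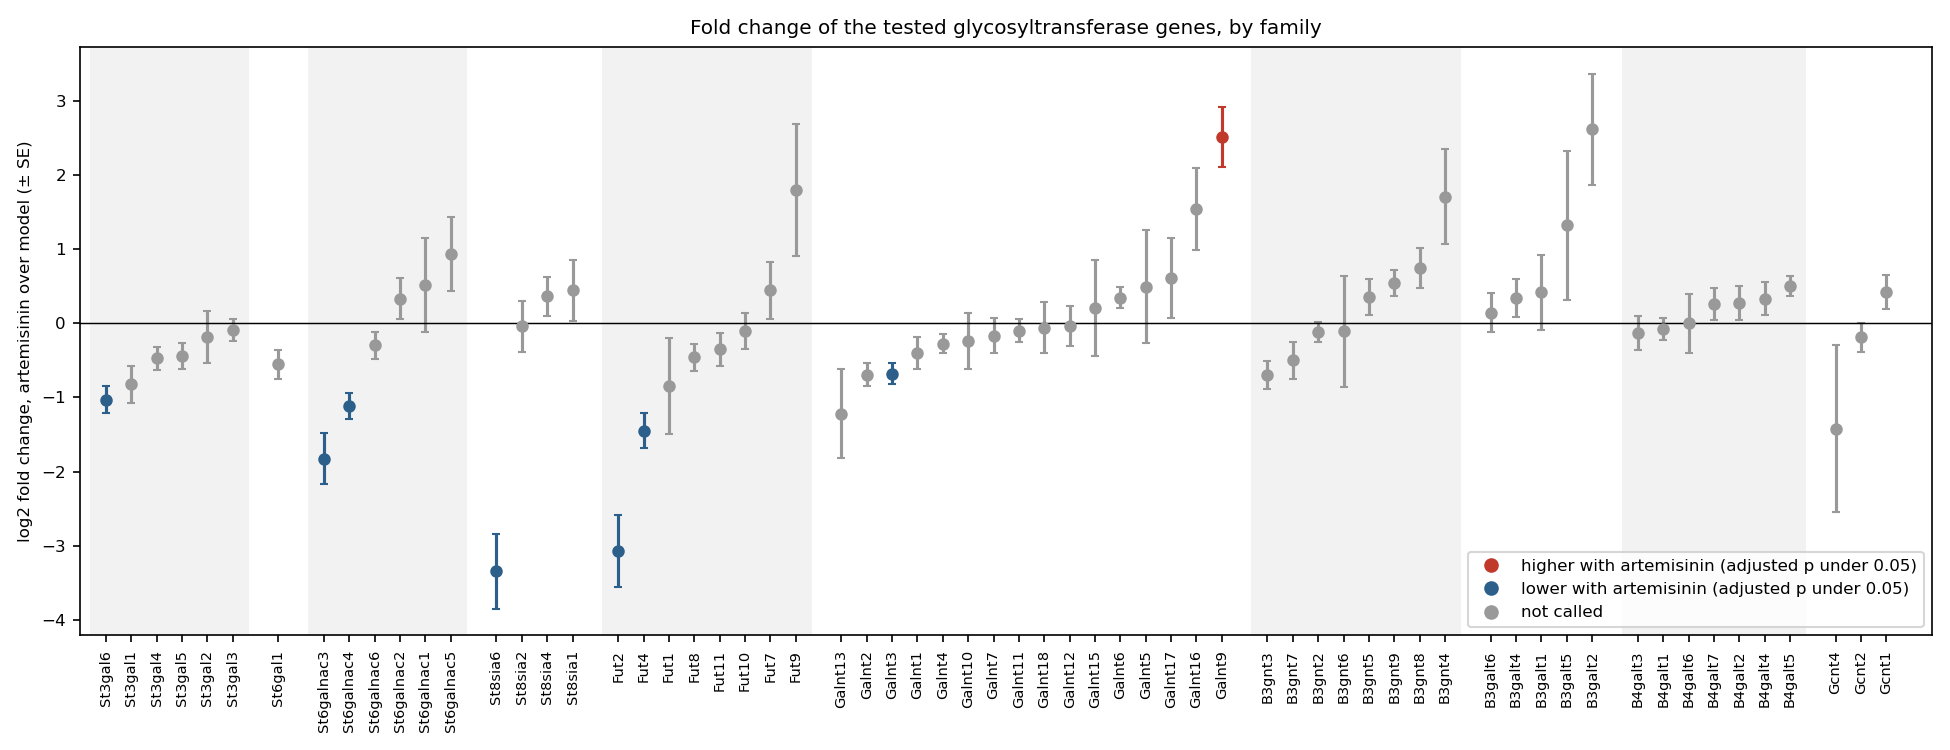
Log2 fold change of the 64 tested genes, artemisinin over model, from edgeR, with bars of 1 SE, grouped by family and ordered by value within each. The 7 genes called lower are blue and Galnt9, the 1 called higher, is red; the lowest points are St8sia6 at -3.34 and Fut2 at -3.07.

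The St8sia family adds sialic acid to sialic acid. St8sia6, which makes short disialic acid caps mainly on O-linked chains and can create ligands for the inhibitory receptor Siglec-E in mouse, had the largest fall of all 64 genes. The gene lies on chromosome 2 from 13651018 to 13794734 (minus strand, GRCm38.p6, as for all positions here). St8sia6 had 2.44, 4.51 and 6.04 normalised CPM in artemisinin mice and 74.7, 30.6 and 27.1 in model mice. All artemisinin values lay far below the model values, and model replicate 1 stood above the other model mice. Its log2 fold change was -3.34 ± 0.50 (SE, n = 3 mice per group), a 10.2-fold lower level (edgeR adjusted p = 0.0214). Without model replicate 1 it was -2.73 (edgeR adjusted p = 0.0673). An antisense gene overlaps St8sia6, and the sources used here do not say whether the counting used strand.

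The polysialic acid synthases of the family did not pass the test. St8sia4 had 55.9, 74.7 and 98.6 CPM in artemisinin mice and 42.2, 63.7 and 72.5 in model mice (log2 fold change 0.36 ± 0.27). St8sia2 had 8.90, 17.0 and 19.1 CPM in artemisinin mice and 10.4, 16.1 and 19.9 in model mice (-0.04 ± 0.35). The groups overlapped for both. St8sia1, the GD3 ganglioside synthase, had 3.51 to 7.90 CPM in artemisinin mice and 3.28 to 4.29 in model mice. St8sia3 and St8sia5 were outside the filter on low counts, with 16 and 7 counts summed over the artemisinin mice and 3 and 0 over the model mice.

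As a result the make-up of the family differed. On the FPKM scale, which corrects for gene length, St8sia6 held 13.9%, 16.3% and 17.4% of the summed family level in artemisinin mice and 84.7%, 59.8% and 52.9% in model mice. St8sia4 held 48.1 ± 3.98% in artemisinin mice and 17.3 ± 8.24% in model mice (SD, n = 3 each). The leading St8sia transcript was thus St8sia4 in each artemisinin mouse and St8sia6 in each model mouse. The summed level was 8.69 ± 2.83 FPKM with artemisinin and 19.3 ± 6.21 FPKM in the model, a ratio of 0.450, and the groups did not overlap. Without St8sia6 the sums were 5.07, 7.21 and 9.54 FPKM in artemisinin mice and 4.05, 6.38 and 7.32 FPKM in model mice, which overlapped (log2 ratio 0.30).

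The St6galnac family attaches sialic acid to GalNAc. St6galnac4 (chromosome 2, 32587078 to 32599696, plus strand), which acts on sialylated core 1 O-linked chains and completes the disialyl T structure, had 23.3, 31.9 and 28.3 CPM in artemisinin mice and 69.3, 53.3 and 58.3 in model mice. The groups were well apart, and the 3 artemisinin mice lay close together. The log2 fold change was -1.12 ± 0.17 (edgeR adjusted p = 0.0224). St6galnac3 (chromosome 3, 153198274 to 153725133, minus strand), which sialylates gangliosides and O-linked chains, had 12.6, 16.7 and 31.1 CPM in artemisinin mice and 72.2, 85.2 and 56.7 in model mice. Artemisinin replicate 3 was the highest of its group but still below every model mouse. The log2 fold change was -1.82 ± 0.34 (edgeR adjusted p = 0.0335). It was -1.11 with limma on log2(FPKM + 1), where low genes show a compressed change. Several annotated genes overlap St6galnac3 on the same strand, so its counts are less certain.

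The other 4 St6galnac genes were not called. St6galnac2, the most abundant, sialylates GalNAc near the base of mucin chains. It had 71.1, 45.8 and 49.9 CPM in artemisinin mice and 50.8, 53.2 and 28.5 in model mice, with overlapping groups (log2 fold change 0.33 ± 0.27, edgeR adjusted p = 0.476). St6galnac1, the sialyl Tn synthase, had at most 2.98 CPM in artemisinin mice and 1.76 in model mice. St6galnac6 and St6galnac5, both ganglioside sialyltransferases, had log2 fold changes of -0.30 ± 0.18 and 0.93 ± 0.50. The summed family level, 53.2 ± 4.23 FPKM in artemisinin mice and 57.1 ± 10.1 FPKM in model mice, therefore overlapped between groups although 2 members fell. St6galnac4 made up 14.9 ± 2.92% of it with artemisinin and 28.4 ± 5.16% in the model, while St6galnac2 made up 52.8 ± 9.91% with artemisinin and 36.0 ± 6.17% in the model. Without St6galnac2 the log2 ratio of the sums was -0.54, in place of -0.10.

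The St3gal family caps galactose with sialic acid in alpha-2,3 linkage. All 6 genes had a log2 fold change below 0, between -1.03 and -0.09, and 1 of them was called. St3gal6 (chromosome 16, 58469742 to 58524260, minus strand) acts on lactosamine chains and contributes to selectin ligands such as sialyl Lewis x. It had 42.2, 58.6 and 60.7 CPM in artemisinin mice and 119.0, 94.98 and 116.0 in model mice. The highest artemisinin value was below the lowest model value, and the fold change was -1.03 ± 0.18 on the log2 scale (edgeR adjusted p = 0.0290).

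St3gal1 caps core 1 O-linked chains and so can stop their extension, and it was the most abundant sialyltransferase in the model, at 25.3 ± 8.71 FPKM with artemisinin and 41.8 ± 0.766 FPKM in the model. With artemisinin St6galnac2 had the higher mean, 28.4 FPKM. The CPM of St3gal1 were 99.0, 152.5 and 200.5 in artemisinin mice and 276.5, 258.0 and 265.2 in model mice. These groups did not overlap, but the artemisinin mice were widely spread, and St3gal1 was not called (log2 fold change -0.82 ± 0.25, edgeR adjusted p = 0.110). St3gal4, another enzyme of lactosamine chains, had 62.5 to 69.4 CPM in artemisinin mice and 79.0 to 108.8 in model mice (-0.47 ± 0.15, edgeR adjusted p = 0.125). St3gal5, the GM3 ganglioside synthase, had 36.8 to 50.1 CPM in artemisinin mice and 52.0 to 70.3 in model mice (-0.44 ± 0.18). For St3gal2, a second core 1 enzyme, and St3gal3, a lactosamine enzyme, the groups overlapped (-0.18 ± 0.35 and -0.09 ± 0.15). The summed St3gal level was 60.0, 72.2 and 80.5 FPKM in artemisinin mice and 106.0, 97.0 and 102.4 in model mice, a ratio of 0.697 without overlap.

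St6gal1 makes the alpha-2,6-linked sialic acid that the B cell receptor CD22 binds. It had 66.6, 86.6 and 96.7 CPM in artemisinin mice and 146.5, 105.5 and 114.1 in model mice. The groups were apart by a small gap, and the log2 fold change of -0.55 ± 0.19 was not called (edgeR adjusted p = 0.147). St6gal2, its paralog, had 15 counts in all over the artemisinin mice and 0 over the model mice and was not tested.

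The promoters of 3 sialyltransferase genes that fell and have a single start in the reference are printed here to show the sequence upstream of genes that moved together. Each line is the 250 bases before the RefSeq start, read on the gene's strand (GRCm38.p6). Capitals mark GC boxes, GGGCGG or its reverse complement CCGCCC.
St6galnac4: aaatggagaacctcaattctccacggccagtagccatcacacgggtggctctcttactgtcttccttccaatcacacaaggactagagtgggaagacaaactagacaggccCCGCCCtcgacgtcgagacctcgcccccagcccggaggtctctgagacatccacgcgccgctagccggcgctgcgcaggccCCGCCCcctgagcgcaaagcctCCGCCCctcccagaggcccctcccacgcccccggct
St6galnac3: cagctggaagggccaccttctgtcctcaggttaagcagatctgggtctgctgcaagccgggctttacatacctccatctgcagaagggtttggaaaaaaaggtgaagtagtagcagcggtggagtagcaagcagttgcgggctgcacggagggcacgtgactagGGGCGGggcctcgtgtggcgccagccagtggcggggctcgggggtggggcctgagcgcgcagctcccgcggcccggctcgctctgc
St8sia6: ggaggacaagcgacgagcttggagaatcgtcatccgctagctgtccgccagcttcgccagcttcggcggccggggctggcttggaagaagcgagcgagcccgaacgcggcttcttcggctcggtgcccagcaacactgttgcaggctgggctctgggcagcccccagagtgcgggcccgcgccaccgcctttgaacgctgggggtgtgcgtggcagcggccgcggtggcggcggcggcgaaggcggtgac
The St6galnac4 window is chr2:32586828-32587077 on the plus strand and holds 3 GC boxes. The St6galnac3 window, chr3:153725134-153725383 on the minus strand, holds 1. The St8sia6 window, chr2:13793521-13793770 on the minus strand, holds 0 and lies inside the gene's annotated span, which ends at base 13794734. All 3 are rich in G and C, at 65.2%, 64.8% and 70.8%, where the median of all reference promoters is 52.4%, with quartiles of 45.2% and 61.2%. Promoters were matched for 50 of the 69 genes. GGGCGG, on either strand, was found in 34 of their 70 promoters (48.6%), and in 32.7% of all 32851 promoters of the same length. CCAAT was found in 30.0% of the 70 and 33.8% of all, and TATAAA in 1.43% of the 70 and 12.4% of all, both also searched on either strand. CAAGTG, the core of NK2-type sites, was found in 12.9% of the 70 and 11.6% of all. A match is a description of the letters only.

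Fut2 and Fut4 were the fucosyltransferases that fell. Fut2 (chromosome 7, 45648591 to 45666394, minus strand), the secretor enzyme, adds alpha-1,2 fucose and makes the H antigen in secretory epithelia. It had 2.03, 4.25 and 1.55 CPM in artemisinin mice and 33.7, 16.7 and 15.7 in model mice. Model replicate 1 was again above the other model mice, and every artemisinin mouse was far below all of them. The log2 fold change was -3.07 ± 0.49, an 8.42-fold lower level (edgeR adjusted p = 0.0244). With limma on log2(FPKM + 1) it was -2.03. Fut4 (chromosome 9, 14748459 to 14752122, minus strand), which adds alpha-1,3 fucose and makes Lewis x, had 8.50, 12.2 and 12.5 CPM in artemisinin mice and 38.5, 25.97 and 26 in model mice. Here too the groups were separate (-1.45 ± 0.24, edgeR adjusted p = 0.0257).

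Of the other alpha-1,3 enzymes, Fut7, the leukocyte enzyme of selectin ligands, had 2.66 to 4.81 CPM in artemisinin mice and 2.08 to 3.49 in model mice. Fut9, a Lewis x enzyme, was barely detected, at 0.813, 0.441 and 1.35 CPM in artemisinin mice and 0.121, 0.556 and 0.0630 in model mice (log2 fold change 1.798 ± 0.89, edgeR adjusted p = 0.257). Fut1, the other alpha-1,2 enzyme, had 0.185 to 0.887 CPM in artemisinin mice and 0.941 to 1.42 in model mice (-0.85 ± 0.65, edgeR adjusted p = 0.447). Neither pair of groups was called, and those of Fut9 overlapped.

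Fut8, the core fucosyltransferase of N-linked chains, was the most abundant member. It had 37.1, 56.9 and 39.8 CPM in artemisinin mice and 59.3, 59.5 and 65.0 in model mice, a small gap (-0.46 ± 0.18, edgeR adjusted p = 0.185). Fut10 and Fut11 had log2 fold changes of -0.10 ± 0.24 and -0.35 ± 0.22 and overlapping groups. By linkage, the summed level of alpha-1,2 enzymes was 1.10 ± 0.487 FPKM with artemisinin and 7.22 ± 2.95 FPKM in the model, a ratio of 0.153. That of the alpha-1,3 enzymes Fut4, Fut7 and Fut9 was 4.46 ± 0.976 FPKM with artemisinin and 8.80 ± 1.98 FPKM in the model, a ratio of 0.507. The whole family summed to 25.3 ± 4.28 FPKM in artemisinin mice and 40.2 ± 4.07 FPKM in model mice, without overlap, a ratio of 0.628. Fut2 made up 3.39 ± 1.49% of it with artemisinin and 16.6 ± 5.67% in the model.

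**Figure D2:**
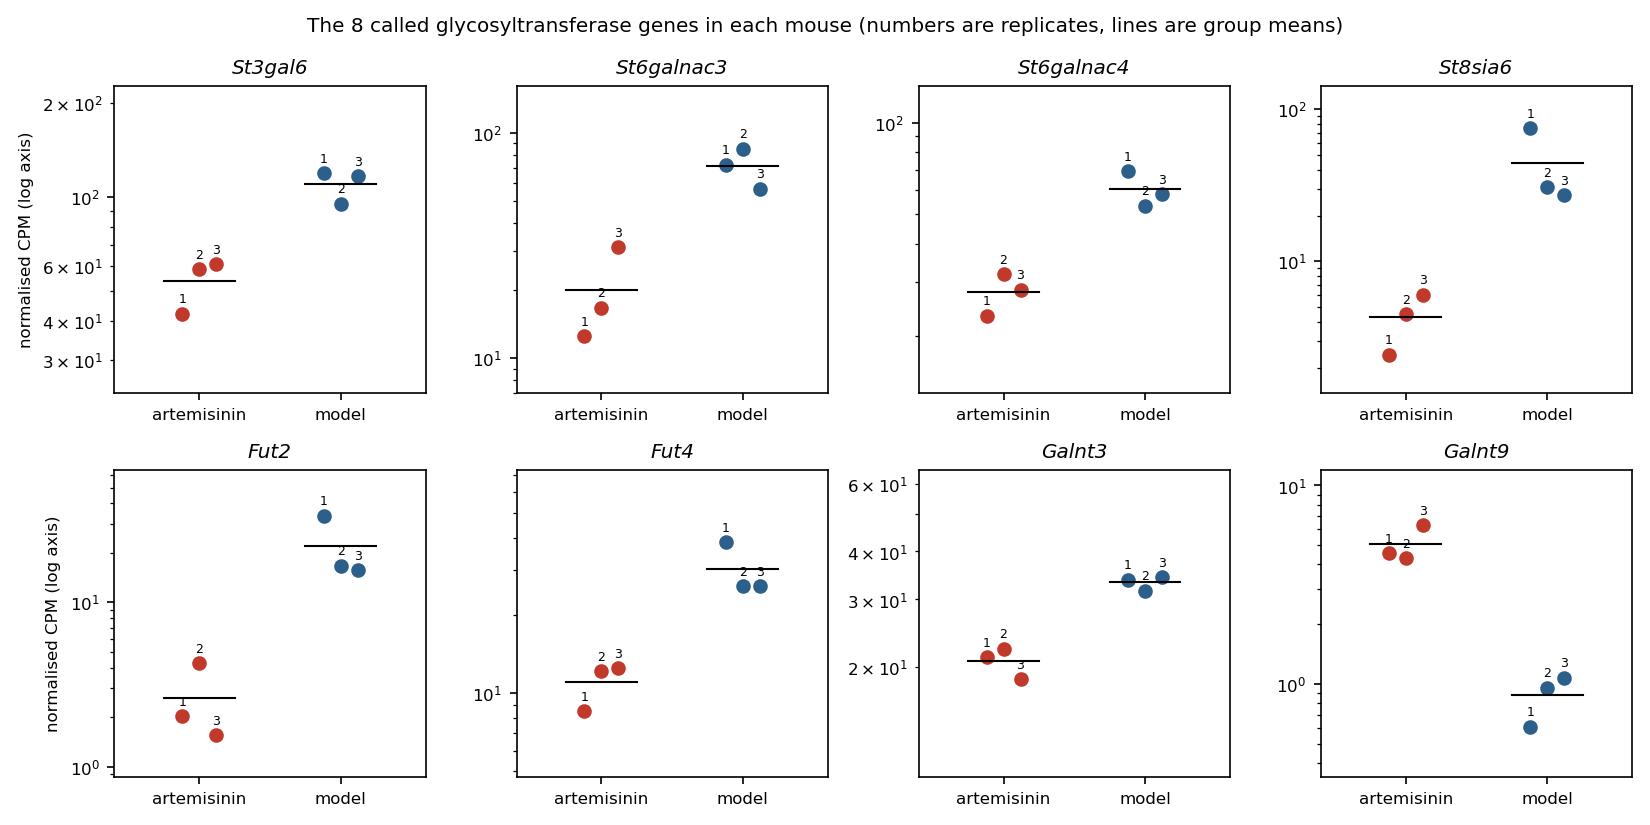
Normalised CPM of the 8 called genes in each mouse on log axes, artemisinin left and model right; numbers are replicates and lines group means. The groups do not overlap for any of the 8, and model replicate 1 is the highest mouse for St8sia6 (74.7 CPM), Fut2 (33.7 CPM) and Fut4 (38.5 CPM).

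**Figure D3:**
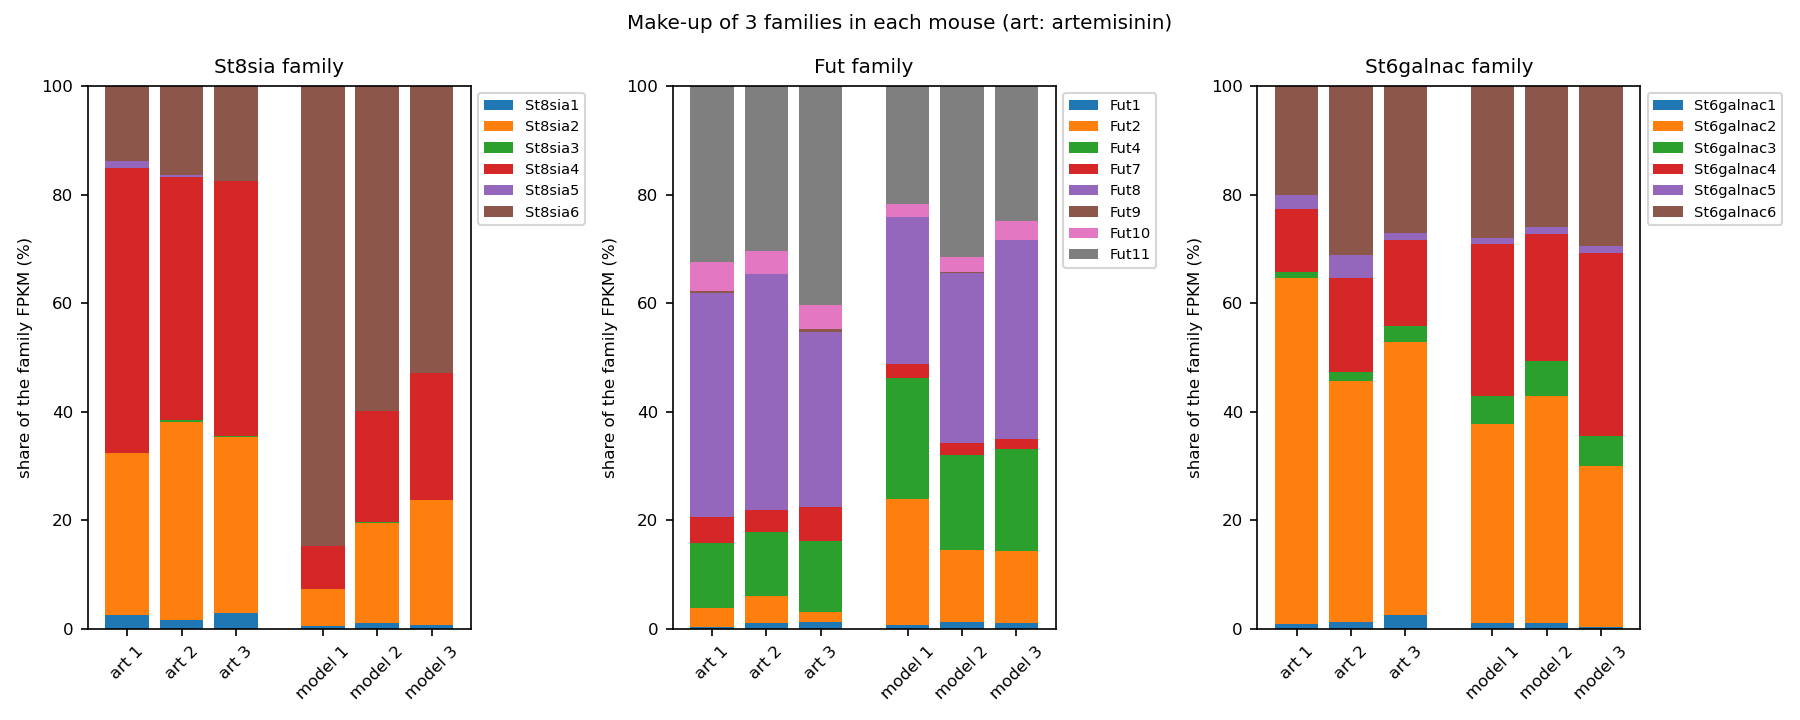
Share of the summed FPKM held by each gene of the St8sia, Fut and St6galnac families in each mouse (%), artemisinin left and model right. St8sia6 fills 13.9% to 17.4% of its family in the artemisinin mice and 52.9% to 84.7% in the model mice.

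The Galnt family starts O-linked chains, with members that differ in the peptide sites they prefer. It had 17 genes, of which 16 were tested, 1 was called lower and 1 higher, and 10 had a log2 fold change below 0. Galnt3 (chromosome 2, 66082766 to 66125056, minus strand), an epithelial member known for protecting the hormone FGF23 from cleavage, had 21.2, 22.3 and 18.6 CPM in artemisinin mice and 33.8, 31.6 and 34.3 in model mice. Both groups were tight and separate, and the fall was small (log2 fold change -0.68 ± 0.14, edgeR adjusted p = 0.0430). With scaling by library totals the log2 fold change of Galnt3 was -0.57 ± 0.14 (edgeR adjusted p = 0.0583). Galnt2, one of the broadly expressed initiators, was just outside the threshold, with 102.5, 125.0 and 127.3 CPM in artemisinin mice and 212.4, 180.1 and 181.6 in model mice (-0.69 ± 0.15, edgeR adjusted p = 0.0514). A predicted protein-coding gene overlaps Galnt2 on the same strand, so its counts are less certain.

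Galnt9 (chromosome 5, 110544032 to 110621383, plus strand), best known from the brain, was the only one of the 64 genes called higher by edgeR with all 6 libraries. It had 4.54, 4.28 and 6.30 CPM in artemisinin mice and 0.607, 0.957 and 1.07 in model mice. The level was low in both groups but every artemisinin mouse was several times above every model mouse (log2 fold change 2.52 ± 0.40, edgeR adjusted p = 0.0245). On the log2(FPKM + 1) scale of limma the change was 1.09. Galnt16, another initiator, had 9.90, 13.4 and 3.23 CPM in artemisinin mice and 1.79, 3.95 and 3.37 in model mice. Artemisinin replicate 3 fell within the model range, and the gene was not called (1.54 ± 0.56, edgeR adjusted p = 0.153).

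Galnt1, a second broadly expressed initiator, had the highest mean over all 6 mice among the 69 genes but led neither group, with 33.8 ± 8.30 FPKM with artemisinin and 41.7 ± 2.02 FPKM in the model. Its CPM were 101.0, 161.2 and 167.4 in artemisinin mice and 202.6, 178.9 and 185.5 in model mice, a separation that was not called (-0.40 ± 0.21, edgeR adjusted p = 0.281). Galnt18 led with artemisinin and Galnt2 in the model (44.8 ± 3.64 FPKM). Galnt18 stood at 37.9 ± 14.7 FPKM with artemisinin and 37.0 ± 10.6 FPKM in the model. In each group replicate 1 was its lowest mouse. Summed, the family reached 120.6, 174.4 and 186.3 FPKM in artemisinin mice and 177.3, 188.2 and 182.4 in model mice. Artemisinin replicate 1 was far below all others and the groups overlapped. After TMM scaling they did not, at 113.9, 174.1 and 176.6 FPKM in artemisinin mice and 187.0, 191.5 and 190.1 FPKM in model mice (ratio 0.817). Galnt14 had 4 counts in all over the artemisinin mice and 12 over the model mice and was not tested. Galnt4 overlaps Poc1b on the same strand, so its counts are also uncertain. The Galnt genes not yet named (Galnt5 to Galnt7, Galnt10 to Galnt13, Galnt15 and Galnt17) had log2 fold changes between -1.22 (Galnt13) and 0.61 (Galnt17), and none of them was called by edgeR in the comparison of all 6 libraries (lowest edgeR adjusted p = 0.195, Galnt6).

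No gene of the families that extend and branch the chains was called by edgeR with all 6 libraries. An unadjusted edgeR p under 0.05 was found for 4 of 8 tested B3gnt, 1 of 5 B3galt, 1 of 7 B4galt and 0 of 3 Gcnt genes. Among all genes tested 24.7% had such a p. In DESeq2 5 of these 6 (B3gnt3, B3gnt4, B3gnt9, B3galt2 and B4galt5) were called. DESeq2 called more of all genes as well, 1234 higher and 1052 lower, where edgeR called 331 higher and 351 lower. These 5 calls are therefore weaker evidence than a call in edgeR. B3gnt enzymes add N-acetylglucosamine in beta-1,3 linkage. B3gnt2, the main poly-lactosamine enzyme and the most abundant, had 59.6, 73.5 and 76.9 CPM in artemisinin mice and 72.4, 80.6 and 74.9 in model mice, with a log2 fold change of -0.12 ± 0.14. A predicted gene overlaps B3gnt2. B3gnt3, which extends core 1 O-linked chains, had 12.7, 18.7 and 14.8 CPM in artemisinin mice and 26.4, 25.8 and 23.1 in model mice. Its groups were separate, but the difference was not called (-0.70 ± 0.19, edgeR adjusted p = 0.0820).

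Other B3gnt genes were higher in each artemisinin mouse without being called. B3gnt9 had 15.1, 17.7 and 18.3 CPM in artemisinin mice and 11.4, 12.04 and 11.7 in model mice (log2 fold change 0.54 ± 0.17, edgeR adjusted p = 0.116). B3gnt8, a poly-lactosamine enzyme, had 7.98, 6.62 and 9.65 CPM in artemisinin mice and 5.43, 4.45 and 4.57 in model mice (0.75 ± 0.26, edgeR adjusted p = 0.146). B3gnt4 had 13.4, 3.34 and 2.98 CPM in artemisinin mice and 1.76, 2.59 and 1.67 in model mice, and artemisinin replicate 1 alone gave most of its difference (1.71 ± 0.64, edgeR adjusted p = 0.162). Diablo overlaps B3gnt4 on the opposite strand and a further annotated gene overlaps it on the same strand. B3gnt6, the core 3 synthase, was below 1 CPM in all 6 libraries. B3gnt5, which makes the lactotriaosylceramide core of glycolipids, had a log2 fold change of 0.35 ± 0.24, and B3gnt7 one of -0.50 ± 0.25. With members on both sides, the family sum was 58.6 ± 3.21 FPKM with artemisinin and 57.8 ± 2.31 FPKM in the model. That ratio was 1.02, and 0.943 after TMM scaling, so its direction was not determined.

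The B3galt family adds galactose in beta-1,3 linkage, and all 5 of its genes had a log2 fold change above 0. B3galt4, the GM1 ganglioside synthase, was the most abundant, with 8.57, 6.52 and 9.76 CPM in artemisinin mice and 5.68, 6.76 and 7.12 in model mice (0.35 ± 0.26, edgeR adjusted p = 0.427). These groups overlapped. B3galt2 had the largest positive log2 fold change of the 64 genes, 2.62 ± 0.75, at low levels. It had 4.47, 1.13 and 1.72 CPM in artemisinin mice and 0.152, 0.463 and 0.567 in model mice, and was not called (edgeR adjusted p = 0.0949). Artemisinin replicate 1 was far above the rest. B3galt2 lies within Cdc73 on the opposite strand, so reads of the pair may not have been told apart. B3galt1, B3galt5 and B3galt6, the last an enzyme of the proteoglycan linker, had log2 fold changes between 0.14 (B3galt6) and 1.32 (B3galt5). The family sum was 8.55 ± 1.22 FPKM with artemisinin and 6.14 ± 0.768 FPKM in the model, a ratio of 1.39 without overlap. After TMM scaling the ratio was 1.29, and artemisinin replicate 2 (7.14 FPKM) fell below model replicate 3 (7.23 FPKM).

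B4galt enzymes add galactose in beta-1,4 linkage and build lactosamine. B4galt1, a subunit of lactose synthase in the mammary gland and the most abundant member, had 115.6, 136.6 and 137.6 CPM in artemisinin mice and 153.5, 124.5 and 133.0 in model mice. The groups overlapped, and the log2 fold change of -0.08 ± 0.15 became 0.03 with scaling by library totals. B4galt5, a lactosylceramide synthase at the base of most gangliosides, had 56.9, 63.7 and 65.8 CPM in artemisinin mice and 39.1, 47.7 and 44.9 in model mice. Every artemisinin mouse was above every model mouse, but the gene was not called (0.50 ± 0.14, edgeR adjusted p = 0.0838). B4galt6, the other lactosylceramide synthase, had 14.9 to 25.6 CPM in artemisinin mice and 11.8 to 31.2 in model mice. B4galt2, B4galt3, B4galt4 and B4galt7, which acts on the proteoglycan linker, lay between -0.13 (B4galt3) and 0.33 (B4galt4). The sum of the family was 108.5 ± 14.8 FPKM with artemisinin and 94.0 ± 3.57 FPKM in the model, with overlapping groups.

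Gcnt enzymes make branches. Gcnt1, which makes core 2 O-linked chains, had 40.3, 23.7 and 27.0 CPM in artemisinin mice and 22.8, 20.1 and 24.9 in model mice (log2 fold change 0.42 ± 0.22, edgeR adjusted p = 0.280). Gcnt2, the I-branching enzyme and the most abundant, had 83.8, 119.3 and 89.4 CPM in artemisinin mice and 90.6, 125.6 and 116.7 in model mice (-0.19 ± 0.19). Both sets of groups overlapped. Gcnt4, a further core 2 enzyme, reached at most 0.882 CPM in artemisinin mice and 2.25 in model mice (-1.42 ± 1.13, edgeR adjusted p = 0.459). Gcnt3, the mucin-type core 2 enzyme, had 6 counts over the artemisinin mice and 0 over the model mice and was not tested. The summed level was 19.8 ± 1.29 FPKM with artemisinin and 19.2 ± 2.54 FPKM in the model, a ratio of 1.03 that was 0.963 after TMM scaling.

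**Figure D4:**
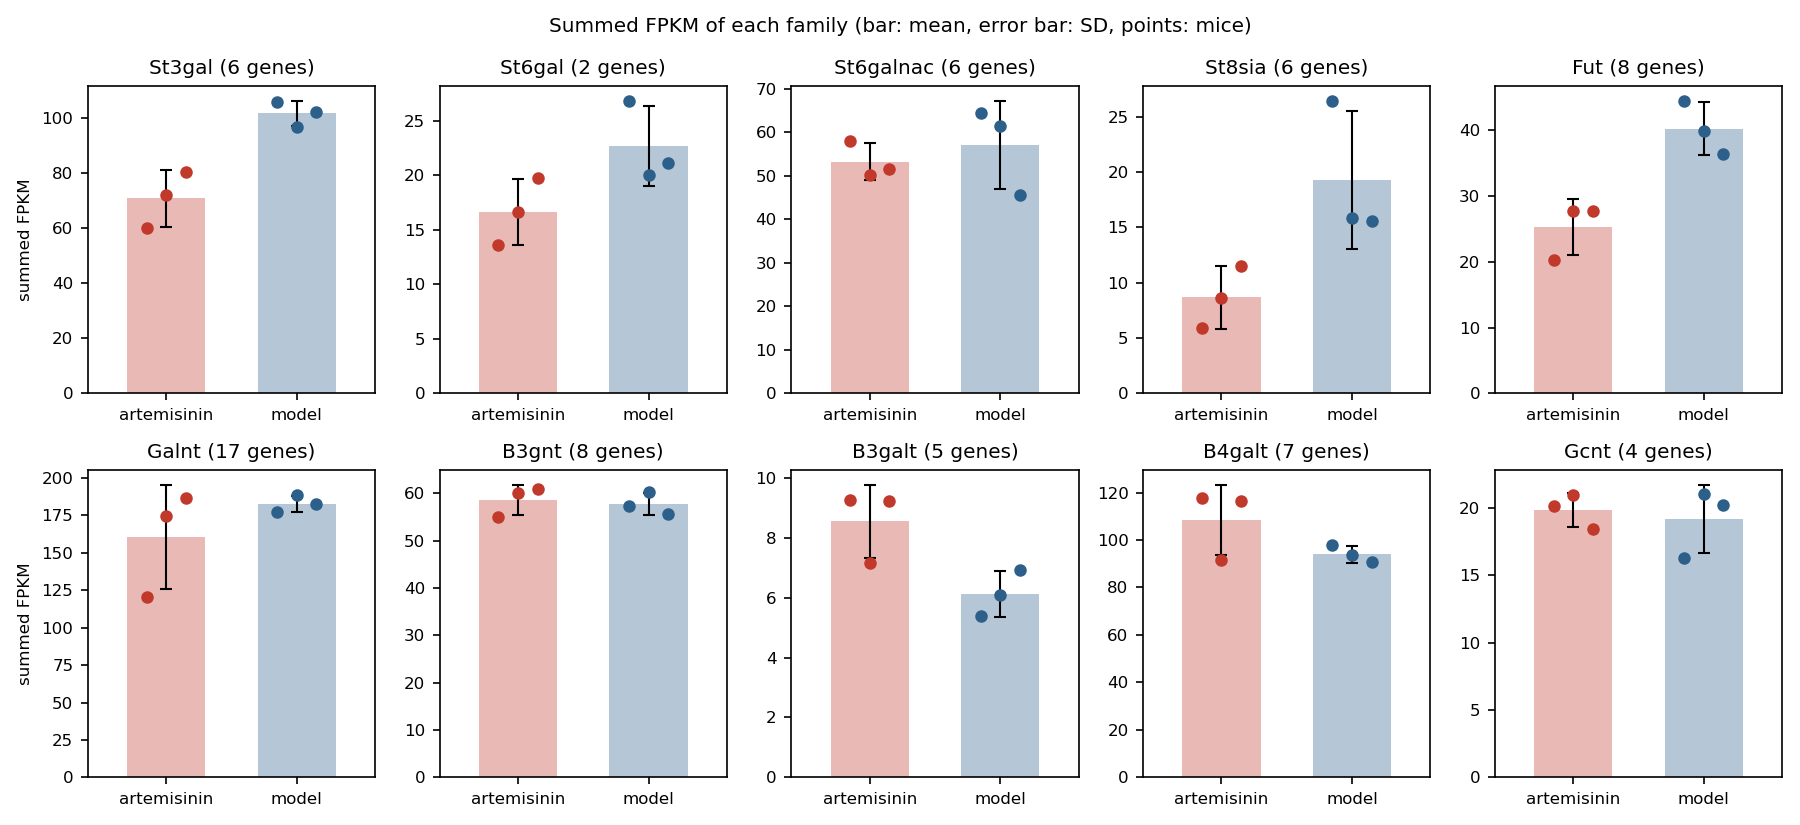
Summed FPKM of the 10 families; bars are means, error bars SD and points the 3 mice of each group, with artemisinin left of model. On this scale the groups are apart for St3gal, St6gal, St8sia and Fut, which are lower with artemisinin, and for B3galt, which is higher; after TMM scaling B3galt overlaps and Galnt is apart and lower.

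Set side by side, the summed levels of 4 of the 5 sialyl- and fucosyltransferase families were lower with artemisinin without overlap. Their ratios ran from 0.450 (St8sia) to 0.734 (St6gal), and the fifth family, St6galnac, overlapped. The Fut sum is not of terminal enzymes alone, since the core enzyme Fut8 held 39.0% of it with artemisinin and 31.7% in the model. After TMM scaling these 4 ratios ran from 0.417 to 0.681. St6gal and St8sia each rested on 1 gene. St6gal was almost wholly St6gal1, which was not called (edgeR adjusted p = 0.147). Without St8sia6 the St8sia sums overlapped, at a ratio of 1.23. The St3gal sum without St3gal1 and the Fut sum without Fut8, each the most abundant member, stayed lower without overlap, at ratios of 0.759 and 0.560. Leaving out Fut8 does not show how far the Fut sum rests on the called genes Fut2 and Fut4. Within that sum, Fut8 alone and Fut10 with Fut11 overlapped between the groups, at ratios of 0.777 and 0.854. After TMM scaling Fut8 alone was lower without overlap, at a ratio of 0.724. Of the 5 families that start, extend and branch chains, 4 overlapped between the groups and B3galt was higher. After TMM scaling B3galt overlapped as well and Galnt was lower without overlap. The contrast of sialyl- and fucosyltransferase families with the other families thus depends in part on the scaling. These sums were not tested.

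Family members that sit next to each other in the genome did not all have similar values. St6galnac3 and St6galnac5 lie 216 kb apart on chromosome 3, with log2 fold changes of -1.82 ± 0.34 and 0.93 ± 0.50. St6galnac4 and St6galnac6 lie only 12 bases apart on chromosome 2, with -1.12 ± 0.17 and -0.30 ± 0.18. Reads at the border of that pair could be assigned to either gene. Fut2 and Fut1 are 27.5 kb apart on chromosome 7, with -3.07 ± 0.49 and -0.85 ± 0.65. St6galnac2 and St6galnac1, 69.2 kb apart on chromosome 11, had 0.33 ± 0.27 and 0.52 ± 0.63. In the first 3 pairs 1 gene was called and the other was not, but the differences between neighbours were not tested.

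**Figure D5:**
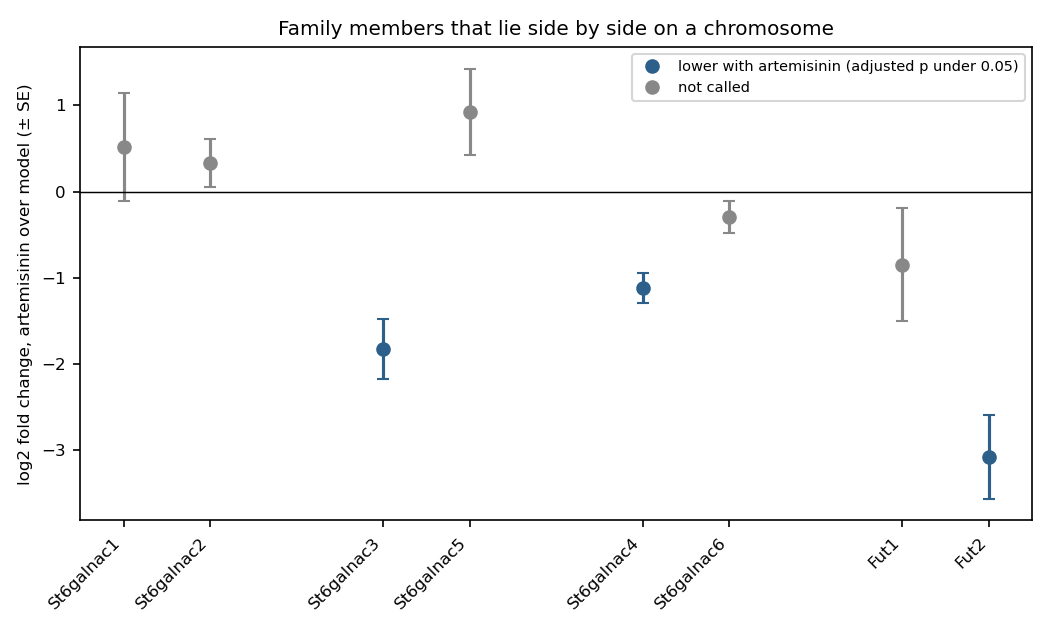
Log2 fold change, artemisinin over model, with bars of 1 SE from edgeR, of the 4 pairs of family members on the same chromosome within 1 Mb. St6galnac3, St6galnac4 and Fut2 are called lower, and their neighbours at 0.93, -0.30 and -0.85 are not called.

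The genes that supply sugars to these enzymes, the proteins that carry the chains and the receptors that read them were read from lists. In the 5 lists whose counts are given here, 8 of 78 tested genes were called (10.3%), against 4.47% of all genes. Of 21 tested glycosyltransferases outside the symbol rule, 1 was higher and 0 lower, with a median log2 fold change of 0.02. A4galt, which makes globotriaosylceramide from lactosylceramide, had 28.6, 19.6 and 25.2 CPM in artemisinin mice and 10.9, 14.6 and 12.3 in model mice (0.96 ± 0.21, edgeR adjusted p = 0.0496). Of 23 genes of nucleotide sugar supply, 1 was lower and 0 higher, with a median of -0.18. Gfpt1, the rate-limiting enzyme of UDP-N-acetylglucosamine synthesis, had 63.2, 105.5 and 79.5 CPM in artemisinin mice and 258.0, 196.7 and 203.7 in model mice (-1.41 ± 0.22, edgeR adjusted p = 0.0244). A4galt and Gfpt1 had groups that did not overlap. Among glycosyltransferases outside the symbol rule, C1galt1 and B3galnt1 had the smallest p after A4galt, with separate groups, but were not called. Their log2 fold changes had opposite signs, -1.39 ± 0.35 and 0.90 ± 0.24 (edgeR adjusted p = 0.0697 and 0.0799).

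Among 8 sialidases, fucosidases and related enzymes, 1 was lower and 0 higher, with a median of -0.08. Fuca1, the lysosomal fucosidase, had 84.5, 101.4 and 97.3 CPM in artemisinin mice and 164.8, 134.9 and 152.8 in model mice (log2 fold change -0.68 ± 0.15, edgeR adjusted p = 0.0482). Of 11 mucins, which carry O-linked chains, 2 were lower (2.3% of all genes were) and 0 higher, with a median of -0.18. The log2 fold change was below 0 for 8 mucins and above 0 for 3. Among those above 0, Muc13 and Muc3a had low levels and separate groups and were not called. Muc1, the transmembrane mucin of many gland-type carcinomas, had 142.5, 122.9 and 71.7 CPM in artemisinin mice and 598.1, 313.5 and 376.0 in model mice (-1.93 ± 0.34, edgeR adjusted p = 0.0288). Muc20, another transmembrane mucin, had 8.76, 8.98 and 8.24 CPM in artemisinin mice and 44.0, 33.3 and 36.0 in model mice (-2.13 ± 0.17, edgeR adjusted p = 0.00553). The artemisinin mice were below the model mice for Fuca1, Muc1 and Muc20, and for Muc1 model replicate 1 was again the highest.

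Among selectin ligands, siglecs and galectins the calls given here were higher with artemisinin. Spn, the leukocyte sialomucin CD43, had 131.2, 109.9 and 120.5 CPM in artemisinin mice and 55.5, 63.3 and 57.2 in model mice (log2 fold change 1.04 ± 0.13, edgeR adjusted p = 0.0149). Of 15 siglecs and galectins, 3 were higher (2.17% of all genes were) and 0 lower, with a median of 0.21. Siglece, the mouse receptor Siglec-E of myeloid cells, had 22.8, 17.4 and 30.2 CPM in artemisinin mice and 9.11, 6.21 and 10.1 in model mice (1.47 ± 0.28, edgeR adjusted p = 0.0344). The galectins Lgals1 and Lgals3, which bind galactose-containing chains, were higher by 1.06 ± 0.16 and 0.81 ± 0.15 on the log2 scale (edgeR adjusted p = 0.0211 and 0.0326). All 4 genes had separate groups. Siglecf and Siglec1, siglecs of macrophages, lay the other way without being called. Siglecf had 12.3, 33.6 and 10.4 CPM in artemisinin mice and 67.2, 47.2 and 61.5 in model mice (-1.64 ± 0.44, edgeR adjusted p = 0.0823). Siglec1 had 12.2, 34.6 and 27.7 CPM in artemisinin mice and 63.9, 55.95 and 52.0 in model mice (-1.20 ± 0.35, edgeR adjusted p = 0.0974). The neutrophil markers given above were also higher in every artemisinin mouse, and their part in these values was not tested.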

How the data were processed

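RNA was sequenced from 6 mice. Per the labels' protocols, the mirVana kit was used for RNA and the TruSeq Stranded mRNA kit for libraries. The build, per the submitters' processing notes, was GRCm38 (mm10). Aligner, counting tool, annotation and strand setting are not given in the sources used here. Each library stands for 1 mouse, as the series' design text lists the samples as mice.

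The authors deposited whole-number read counts per gene and a table of FPKM. Over 15462 genes the deposited FPKM were those counts divided by the library total and a length per gene (relative gap at most 5.26e-07), so they are not independent evidence.

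The count test was edgeR 4.0.16 under R 4.3.3 (filterByExpr, leaving 15242 genes, TMM factors of 0.948 to 1.06, robust glmQLFit and glmQLFTest), with Benjamini-Hochberg adjustment over all genes tested and a threshold of 0.05. For normalised CPM, each library's total was multiplied by its TMM factor. Standard errors come from the log2 fold change and its F value. A permutation test of 3 mice against 3 cannot go below a two-sided p of 0.1, so the p-values rest on the spread shared across genes. DESeq2 1.42.0 and limma 3.58.1 were alternatives. The scripts were tested on simulated counts, where edgeR recovered 28% of the genes set at 2-fold and 84% of those at 4-fold. False calls there were 10.4% with edgeR, 29.9% with DESeq2 and 6.31% with limma-voom, all above the threshold of 0.05. A gene that was not called is therefore not shown to be unchanged. Gene positions and promoters are RefSeq's for GRCm38.p6, and overlaps are from GENCODE. Many of the glycosyltransferase genes overlap another annotated gene, and only some of these overlaps are named here.

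The members and lists were chosen with earlier results of these data known. Named with full values were, by rule, the called members, the most abundant member and that of the smallest p in each family, the 5 largest changes in either direction, and the called genes of the other lists. One of these genes and its list count are not reported here. St8sia1, St8sia2, St8sia4, Galnt2, Galnt18, B3gnt8, B3gnt9, Siglec1, Siglecf and others given by range were added after their values were seen. The same holds for C1galt1, B3galnt1, Muc13 and Muc3a.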

Additional observations from a re-analysis of the deposited data

How the results depend on the processing

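Of the 8 called genes, St3gal6 and St6galnac4 kept an adjusted p under 0.05 in 12 of 16 alternative settings, St8sia6, Fut2 and Fut4 in 11, St6galnac3 and Galnt9 in 10 and Galnt3 in 6. None of the 8 changed direction in any of the 16. With 1 library left out, edgeR called 6 to 670 of all genes higher and 11 to 713 lower, and 0 to 1 glycosyltransferase genes higher and 0 to 10 lower. Each such fit also has fewer mice. Of the 15242 genes kept by the filter, DESeq2 called 1234 higher and 1052 lower. Of the 64 tested glycosyltransferase genes it called 6 higher and 10 lower. Limma on log2(FPKM + 0.1) without a filter called 207 of all genes lower. The labels name no pairing of mice by replicate number. The correlations of same-numbered deviations were 0.00249, -0.138 and 0.0419, and those of different numbers ran from -0.116 to 0.106. With 3 mice per group these values cannot settle whether same-numbered mice shared a factor. With the replicate block edgeR called 65 genes higher and 63 lower and 0 glycosyltransferase genes in either direction, while 18 of these had an unadjusted p under 0.05. B4galt1 changed sign (main log2 fold change -0.08), to 0.0321 with library totals, 0.0262 with limma on log2(FPKM + 0.1), with or without a filter, and 0.0255 on log2(FPKM + 1). With 1 library left out it ran from -0.171 to 0.0101, above 0 without artemisinin replicate 1 (0.000906) or model replicate 1 (0.0101). The cause was not tested. Without the most abundant member, the log2 ratio of family sums was -0.54 for St6galnac, 0.30 for St8sia and 0.50 for Gcnt (-0.10, -1.15 and 0.05 with it); St6gal gave no value, since St6gal2 had 0 counts in the model. TMM scaling of the FPKM, an alternative chosen after seeing the data, moved the log2 ratio of the B3gnt sum to -0.0847 from 0.02. Low counts limit B3galt2, Fut9, Gcnt4 and the 5 untested genes.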

Other observations

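The spread among artemisinin mice was wider than among model mice for 50 of the 64 tested glycosyltransferase genes (78.1%), and for 74.97% of all genes tested. The median coefficient of variation of normalised CPM was 26.8% in artemisinin mice and 16.2% in model mice over the 64 genes, and 22.8% in artemisinin mice and 11.8% in model mice over all genes.

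Of the 69 genes, 53 had a mean of at least 1 FPKM over the 6 libraries. The 5 most abundant, by that mean, were Galnt1 at 37.7 FPKM, Galnt18 at 37.5 FPKM, Galnt2 at 37.3 FPKM, B4galt1 at 35.2 FPKM and St3gal1 at 33.6 FPKM. Their order differed between groups: Galnt18 led with artemisinin, at 37.9 ± 14.7 FPKM, and Galnt2 in the model, at 44.8 ± 3.64 FPKM.

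The lactosylceramide synthases B4galt5 and B4galt6 together reached 17.3, 17.4 and 21.0 FPKM in artemisinin mice and 13.7, 13.5 and 12.1 FPKM in model mice, without overlap. The summed level of the chain-end enzymes B3galt1, B3galt2 and B3galt5 was 1.30, 0.664 and 0.766 FPKM in artemisinin mice and 0.160, 0.284 and 0.464 FPKM in model mice, also without overlap. The polysialic acid synthases St8sia2 and St8sia4 together gave 6.998 ± 2.16 FPKM in artemisinin mice and 5.77 ± 1.68 FPKM in model mice (SD, n = 3 each), with overlapping groups. Each of these overlaps and separations was the same after TMM scaling. These sums were not tested. B4galt6, B3galt1 and B3galt5 each overlapped between the groups, so the separations rested largely on B4galt5 and B3galt2. Neither of those genes was called by edgeR with all 6 libraries, and B3galt2 had only 5, 15 and 18 counts in the model mice.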
